A study of Zea mays with 10 samples.

Results

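The 319 windows described here are stretches of 100 kb in the maize (Zea mays) genome in which B73 seedlings gave ample small RNA and at least 1 of 3 lines carrying another allele of p1 gave little. They were chosen from read counts per window, scaled to a library total of 1000000 reads (CPM). A window was taken when B73 had 10 CPM or more in leaf and in root, and when id1, id4 or 9d9a had 1/3 of the B73 level or less in both tissues. Of 20584 windows with reads in any library, 14539 met the B73 criterion and are called eligible below. The 319 members were 2.19% of these eligible windows. The word lost is used for a line at 1/3 of B73 or less in both tissues, and it describes the choice of the windows, not a test.

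All libraries came from seedlings 14 days old, with 1 library for each line and tissue. The lines were id1 (genotype P1-wwid1), id4 (genotype P1-wwid4), 9d9a (genotype P1-vv9d9a), 714H (P1-ww714/B73), 714 (P1-ww714) and the inbred B73. Leaf and root were sequenced for id1, id4, 9d9a and B73, and leaf only for 714H and 714. The leaf libraries are so named by their titles, while their tissue label reads seedling. The labels state the p1 allele of each line but not the rest of its genome, nor how many plants went into a library. Library totals ran from 8472011 to 18396214 reads, and the B73 leaf library was the deepest. Because each line had 1 library per tissue, levels between lines carry no replicate error, and intervals below cover counting error only.

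Most small RNA of a maize seedling is short interfering RNA made from transposons and other repeats by the RNA-directed DNA methylation pathway, in which a plant-specific RNA polymerase makes the precursor and an Argonaute protein carries the product back to matching loci. Micro RNAs and phased small interfering RNAs add high counts at few loci. The p1 gene lies on chromosome 1. Its Myb-type protein switches on flavonoid pigment genes in pericarp and cob, and p1 alleles are named for the colour of these tissues. Transposition of Ac and Ds elements at p1 is known to give deletions, duplications and other rearrangements of the flanking chromosome.

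The members held 0.733% of all reads in id1 leaf, 1.48% in id4 leaf and 1.40% in 9d9a leaf, with 1.93% in 714H leaf and 1.71% in 714 leaf, against 2.11% in B73 leaf. In root they held 0.805% in id1, 1.48% in id4 and 1.35% in 9d9a, against 2.35% in B73. The median member had 9.88 CPM in id1 leaf, 29.9 in id4 and 24.0 in 9d9a, with 41.5 in 714H and 31.7 in 714, against 50.3 CPM in B73 leaf. The id1 libraries were thus the lowest by the share of reads in both tissues and by the median member in leaf. B73 levels of members lay near those of all eligible windows, whose median was 43.8 CPM in B73 leaf. No member had 0 reads in any library. From counts in whole leaves or roots, less small RNA per cell, fewer cells that make it and fewer reads that match the reference genome cannot be told apart.

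Loss was most frequent in id1, with 227 windows (1.56% of eligible windows), followed by 9d9a with 142 (0.977%) and id4 with 61 (0.42%). In 228 members a single line was low. These were 138 windows lost in id1 alone, 79 in 9d9a alone and 11 in id4 alone. The other 91 members were shared, 41 by id1 and 9d9a, 28 by id1 and id4, 2 by id4 and 9d9a, and 20 by all 3 lines. The overlap of id1 and id4 was 78.7% of the id4 windows but 21.1% of the id1 windows. The overlap of id1 and 9d9a was 43.0% of the 9d9a windows and 26.9% of the id1 windows, and that of id4 and 9d9a was 36.1% of the id4 windows and 15.5% of the 9d9a windows.

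The size of the loss also varied between lines. The larger of the leaf and root ratios to B73 had a median of 0.143 over the windows lost in id1 (quartiles 0.0680 and 0.234), 0.235 in id4 (0.164 and 0.290) and 0.218 in 9d9a (0.150 and 0.278). A level of 0.05 of B73 or less was reached in 34 windows of id1, 2 of id4 and 9 of 9d9a. Few windows were empty down to single reads. In 21 of the 430 combinations of a window and a line that lost it, neither tissue had more than 10 reads. Near the upper end, 51 of the 430 had a ratio over 0.3. The member closest to the limit, at 226.6 Mb of chromosome 1, had a larger ratio of 0.332 in 9d9a, and the nearest eligible window outside it, at 229.7 Mb of chromosome 2, had 0.336 in id1. At the B73 limit, the window at 85.1 Mb of chromosome 1 was included with a B73 leaf level at the limit of 10 CPM, and that at 126.8 Mb of chromosome 1 was left out with 9.70 CPM in B73 root.

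Of the members, 242 were on chromosome 1, which is 75.9% of them, while chromosome 1 held 15.4% of the eligible windows. All 91 shared members were on chromosome 1, and the 77 members on other chromosomes were each lost in a single line. Chromosome 2 had 43 members, 42 of them lost in id1 and 1 in 9d9a. Chromosome 7 had 24, all lost in 9d9a, and chromosome 10 had 5, all lost in id1. Chromosome 5 had 2 and chromosomes 4, 8 and 9 had 1 each, all lost in id1. Chromosomes 3 and 6 had none. The id4 losses were all on chromosome 1, between 30.3 and 76.4 Mb.

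**Figure D1:**
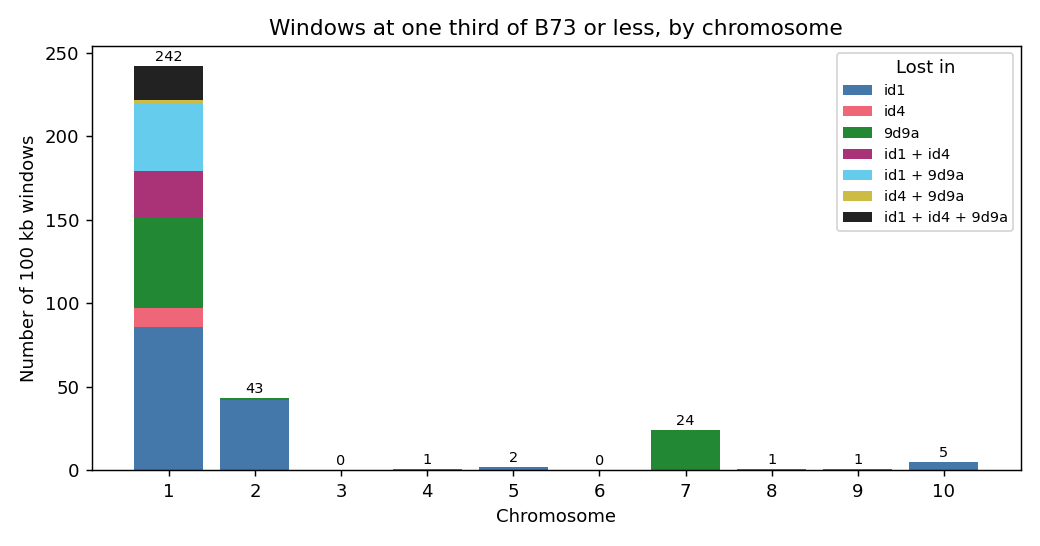
Number of member windows (100 kb each) on each chromosome, with the lines in which they were lost as stacked colours; the number above each bar is its total. Chromosome 1 holds 242 of the 319 windows and all windows lost in more than 1 line.

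The members lay close together. A window next to a member on either side was itself a member for 62.4% of members (199 of 319), and among all eligible windows 2.96% had a member next to them. The median distance to the next member on the same chromosome was 0.2 Mb. Joining members at most 1 Mb apart gave 33 clusters, of which 9 held 10 or more members. These 9 clusters held 259 members (81.2%) over 66.3 Mb, and id1 had 10 or more losses in 7 of them. Another 12 members stood alone. Long unbroken runs were rare. The 319 members formed 200 runs of consecutive windows, and the longest runs were 6 windows, at 37.3 to 37.9 Mb and at 54.3 to 54.9 Mb of chromosome 1. A run also ends at a window with B73 under 10 CPM, which could not be a member. In the 7 clusters with 10 or more losses of id1, 109 of 565 windows were of that kind.

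Within the clusters, windows that a line lost were interspersed with windows that it kept. The 7 clusters with 10 or more losses of id1 held 456 eligible windows, of which id1 had lost 201. Among the other 255, 126 were at 0.667 of B73 or more in both tissues and 8 were at 1.5 times B73 or more in both. Relative to B73 their median level was 0.731 in id1 leaf and 0.713 in id1 root, also lower than the eligible windows outside the set, whose median in id1 was 1.01 in both tissues. In the 5 such clusters of 9d9a, 145 of the 219 eligible windows that were not lost stood at 0.667 of B73 or more. In the single such cluster of id4 this held for 30 of 81. For 9d9a, 1 of the 5 clusters ran from 50.6 to 65 Mb of chromosome 1, and its last window lost in 9d9a was at 53.0 Mb. From 52.1 to 65 Mb 9d9a had lost 4 windows among 107 eligible, so many windows it kept lay beyond its losses, not among them. Windows with B73 under 10 CPM inside these clusters were higher in sum than B73 in id1 and lower in id4 and 9d9a. The 109 such windows of the id1 clusters summed to 1147 CPM in id1 leaf against 569 in B73 leaf, and to 1132 CPM in id1 root against 542 in B73 root. The 62 of the 9d9a clusters summed to 280.5 CPM in 9d9a leaf against 330.3 in B73 leaf, and to 242 CPM in 9d9a root against 294 in B73 root. The 23 of the id4 cluster summed to 92.0 CPM in id4 leaf against 132 in B73 leaf, and to 89.3 CPM in id4 root against 119 in B73 root.

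**Figure D2:**
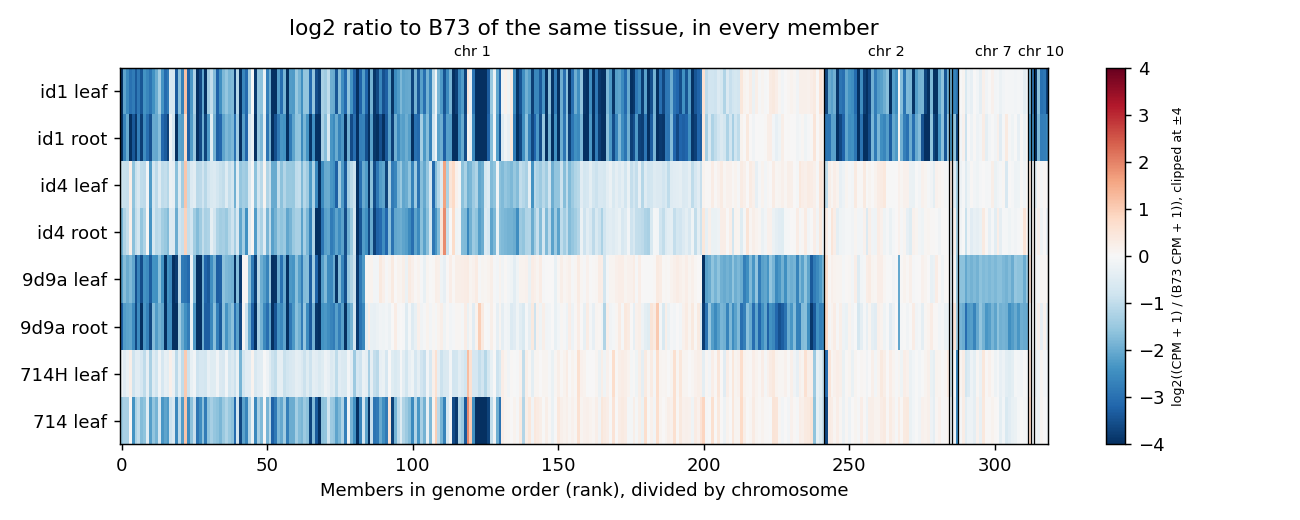
Ratio to B73 of the same tissue (colour, log2 of CPM + 1, clipped at 4 units either way) for each of the 319 members in genome order (columns) in the 8 libraries other than B73 (rows). Blue blocks show that neighbouring windows were low in the same lines, that leaf and root of a line matched, and that 714 was low in the first part of chromosome 1 where 714H was paler.

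On chromosome 1 the lines that lost a window changed from segment to segment. The segment bounds used here were drawn after the positions were known. From 28.5 to 47.9 Mb there were 68 members, of which 56 were lost in id1, 62 in 9d9a and 10 in id4. The window at 41.4 Mb had 41.3 CPM in id1 leaf, 43.2 in 9d9a leaf and 121 in id4 leaf, with 240.4 in 714H and 77.0 in 714, against 279 CPM in B73 leaf. Its root levels were 41.6 CPM in id1, 39.0 in 9d9a and 89.4 in id4, against 319 in B73. Here id1 and 9d9a were almost equal in both tissues, and id4 was lower than B73 without reaching the limit.

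By the medians of all 158 eligible windows from 28.5 to 47.9 Mb, members included, id4 lay below B73 and above id1 and 9d9a. As ratios to B73, the leaf medians were 0.617 (id4), 0.452 (9d9a) and 0.413 (id1). The root medians were 0.571 (id4), 0.386 (id1) and 0.378 (9d9a). In the 41 windows lost in id1 and 9d9a but not in id4, id4 had a median ratio to B73 of 0.491 in leaf and 0.389 in root. In the same windows the median ratio was 0.158 in id1 and 0.178 in 9d9a in leaf. These 41 windows were picked for low id1 and 9d9a with id4 not lost, so the choice itself favours this order. At 44.3 Mb the leaf levels were 33.7 CPM in id1, 57.8 in id4 and 32.3 in 9d9a, with 105 in 714H and 41.1 in 714, against 164 in B73. At 47.4 Mb, the last cluster before a gap, they were 52.8 in id1, 59.9 in id4 and 48.3 in 9d9a, with 115 in 714H and 51.2 in 714, against 161 in B73. In root at 47.4 Mb they were 44.8 in id1, 64.8 in id4 and 40.0 in 9d9a, against 232 in B73. Whether a window counted as shared by 2 or by 3 lines here thus depended on id4 levels not far from the limit.

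Some windows of this segment were low in all 3 lines. At 42.7 Mb, where 9d9a had its lowest ratio, the level was 1.10 CPM in id1 leaf, 17.8 in id4 and 0.944 in 9d9a, with 41.1 in 714H and 7.24 in 714, against 75.8 in B73. The root levels there were 1.24 CPM in id1, 12.8 in id4 and 0.620 in 9d9a, against 61.6 in B73. For 9d9a these were 8 reads of the leaf library and 7 of the root library. At 39.7 Mb id1 had 6.89 CPM in leaf and 6.39 CPM in root, id4 34.5 and 37.4, and 9d9a 7.20 and 9.74, against 110.0 and 179 in B73. At 46.1 Mb id1 had 17.6 and 23.6 CPM, id4 29.3 and 32.0, and 9d9a 14.3 and 20.5, against 101 and 144 in B73. The id4 level was the highest of the 3 lines at each of these windows.

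No member lay between 47.9 and 50.6 Mb of chromosome 1, where 23 windows were eligible. In these 23 windows the median ratio to B73 was 2.03 in id1 leaf, 1.97 in id1 root, 1.44 in 714H leaf and 2.19 in 714 leaf. It was 1.01 in id4 leaf, 1.0 in id4 root, 0.958 in 9d9a leaf and 0.936 in 9d9a root.

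The members resumed at 50.6 Mb. That window had 13.4 CPM in id1 leaf, 7.64 in id4 and 7.08 in 9d9a, with 127 in 714H and 10.9 in 714, against 196 in B73 leaf. Its root levels were 12.1 CPM in id1, 6.32 in id4 and 6.29 in 9d9a, against 233 in B73, and the larger ratio of 0.0389 in id4 was the lowest of that line. From 50.6 to 52.1 Mb all 9 members were lost in 9d9a, 8 in id4 and 7 in id1. The only members shared by id4 and 9d9a without id1 lie here. At 51.3 Mb id1 had 62.1 CPM in leaf and 104 CPM in root, id4 31.4 and 36.7, and 9d9a 21.4 and 27.4, against 128 and 159 in B73. At 50.8 Mb id1 had 23.5 and 28.7 CPM, id4 9.23 and 8.79, and 9d9a 11.9 and 13.2, against 59.0 and 72.7 in B73.

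Beyond 52.1 Mb loss in 9d9a became rare. From 52.1 to 65 Mb there were 52 members, lost in id1 in 45, in id4 in 32 and in 9d9a in 4, and the eligible windows had a median ratio to B73 of 1.07 in 9d9a leaf. At 53.4 Mb id1 had 13.0 CPM in leaf and 14.2 CPM in root, id4 25.7 and 30.8, and 9d9a 136 and 136, against 128 and 174 in B73. At 53.6 Mb id1 had 23.9 and 25.4 CPM, id4 27.8 and 28.4, and 9d9a 99.4 and 95.7, against 90.3 and 118 in B73. The level of 9d9a lay beside that of B73 in these windows, and the other lines were both low.

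The run from 54.3 to 54.9 Mb shows how neighbours can differ. At 54.6 Mb the leaf level was 1.5 CPM in id1, 4.35 in id4 and 47.8 in 9d9a, with 26.1 in 714H and 1.91 in 714, against 37.2 in B73. The adjoining window at 54.5 Mb had 23.9 CPM in id1, 43.5 in id4 and 118 in 9d9a, with 110.1 in 714H and 156 in 714, against 109.7 in B73. Both windows were lost in id1, while 714 was near id1 in the first and above B73 in the second. These windows were chosen for the run after their values were seen, outside the rule for named windows.

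The members lost in id4 alone were few and lay in the same part of the chromosome. At 62.2 Mb id4 had 33.3 CPM in leaf and 31.5 CPM in root, id1 181 and 216, and 9d9a 161 and 162, against 129 and 195 in B73. At 62.4 Mb id4 had 53.8 and 52.4 CPM, id1 161 and 164, and 9d9a 205 and 214, against 192 and 201 in B73. At 64.7 Mb id4 had 33.9 and 36.0 CPM, id1 41.6 and 47.2, and 9d9a 137 and 185, against 117 and 157 in B73. At 64.7 Mb id1 was also low, just short of the limit in leaf.

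From 66.3 to 87.2 Mb loss was mostly in id1. Of 71 members there, 67 were lost in id1, 11 in id4 and none in 9d9a. The cluster from 75.9 to 87.2 Mb had 48 members among 85 eligible windows, all 48 lost in id1, and the median ratio of id1 to B73 over them was 0.0970 in leaf and 0.0838 in root. The best read of them, at 79.7 Mb, had 4.39 CPM in id1 leaf, 235 in id4 and 444 in 9d9a, with 427 in 714H and 501 in 714, against 366 in B73 leaf. In root it had 3.64 CPM in id1, 187 in id4 and 402 in 9d9a, against 454 in B73. In this cluster id4 had median ratios to B73 of 0.635 in leaf and 0.613 in root over the 48 members. As 47 of the 48 were lost in id1 alone, the choice itself favours id4 above id1. The cluster also held 37 eligible windows that no line had lost. Over these the id4 medians were 0.891 (leaf) and 0.867 (root), and those of id1 0.603 (leaf) and 0.674 (root).

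Loss in 9d9a alone returned on the long arm. From 226.3 to 245.5 Mb of chromosome 1 there were 41 members, all lost in 9d9a and none in id1 or id4. At 234.2 Mb 9d9a had 74.1 CPM in leaf and 41.1 CPM in root, id1 324 and 314, and id4 441 and 407, against 379 and 346 in B73. In the first of the 2 large clusters here, at 226.3 to 230.3 Mb, the median ratio of id1 to B73 over the 12 members was 0.575 in leaf and 0.534 in root. In the second, at 236.7 to 242.5 Mb with 20 members, it was 1.10 and 1.02. The median ratio of 9d9a to B73 over these 20 was 0.205 in leaf and 0.140 in root.

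Away from chromosome 1 each window was lost in a single line. On chromosome 2 the cluster at 225.2 to 231.6 Mb had 24 members, 23 lost in id1 and 1 in 9d9a, and that at 233.3 to 237.0 Mb had 14, all lost in id1. Over the 24, the median ratio to B73 was 0.170 in id1 leaf and 0.142 in id1 root, and in the other lines it lay between 0.898 and 1.10. The best read member, at 229.4 Mb, had 73.8 CPM in leaf and 64.0 CPM in root in id1, 238 and 290.1 in id4, and 237 and 295 in 9d9a, against 239 and 300.2 in B73. The 24 members of chromosome 7 lay between 10.2 and 85.2 Mb, and 23 of them before 24.3 Mb. At 10.5 Mb 9d9a had 84.4 CPM in leaf and 83.4 CPM in root, id1 229 and 382, and id4 246 and 372, against 352 and 690.1 in B73. In the chromosome 7 window at 15.3 Mb, 9d9a had 76.0 and 92.6 CPM, id1 262 and 335, and id4 252 and 297, against 282 and 383 in B73. The 5 members of chromosome 10 lay within 0.7 Mb, from 144.8 to 145.5 Mb, where 7 windows were eligible. At 145.2 Mb id1 had 21.2 and 27.4 CPM, id4 166 and 169.6, and 9d9a 183 and 152, against 174 and 193 in B73.

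Of the 12 members that stood alone, 2 were on chromosome 1, 4 on chromosome 7 and 6 on chromosomes 2, 4, 5, 8 and 9. Alone means more than 1 Mb from any other member, and some were not far beyond that distance. The member at 41.4 Mb of chromosome 1 and those at 13.4, 17.9 and 19.0 Mb of chromosome 7 each had another member 1.1 Mb away. On chromosome 9, at 153.5 Mb, id1 had 37.2 CPM in leaf and 36.2 CPM in root, id4 253 and 243, and 9d9a 258 and 218, against 287 and 218 in B73. On chromosome 1, at 159.3 Mb, 9d9a had 2.83 and 1.68 CPM, id1 94.6 and 50.5, and id4 68.2 and 50.5, against 61.3 and 36.3 in B73. On chromosome 5, at 73.1 Mb, id1 had 38.3 and 47.2 CPM, id4 185 and 169, and 9d9a 273 and 209, against 251 and 146 in B73. In 8 of the 12, these 3 included, no other line was under 0.667 of B73 in either tissue. The other 4 were lower in a further line. At 41.4 Mb of chromosome 1, lost in id1 and 9d9a, id4 was at 0.435 of B73 in leaf and 0.280 in root. At 194.9 Mb of chromosome 5, lost in id1, id4 was at 0.387 in leaf and 0.382 in root, and 9d9a at 0.352 in leaf and 0.371 in root. At 144.5 Mb of chromosome 2 id4 was at 0.480 in leaf, and at 74.9 Mb of chromosome 4 9d9a was at 0.576 in root.

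The windows lost in a single line were not equally normal in the others. Among the 138 lost in id1 alone, 9d9a was at 0.667 of B73 or more in both tissues in 124, and id4 in 67. In 26 of the 138, id4 was at 0.5 of B73 or less in both tissues without reaching 1/3. Among the 79 lost in 9d9a alone, id4 was at 0.667 or more in 68 and id1 in 57.

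Leaf and root gave like values for each line that lost a window. Over the 430 combinations of window and line, the log2 ratio to B73 (of CPM + 1) in leaf minus that in root had a median of 0.13, and 413 (96.0%) lay within 2-fold. The rule asked for loss in both tissues, so this nearness is partly set by the choice. The widest gap was at 51.7 Mb of chromosome 1 in 9d9a, where 9d9a leaf had 3.66 CPM and 9d9a root 8.50 CPM, against 69.1 CPM in B73 leaf and 41.7 CPM in B73 root. There the ratio was 1.74 lower in leaf on the log2 scale. On chromosome 2, at 234.1 Mb, id1 leaf had 5.39 CPM and id1 root 1.51 CPM, against 22.1 CPM in B73 leaf and 26.6 CPM in B73 root, and the log2 ratio in leaf was higher by 1.60.

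**Figure D3:**
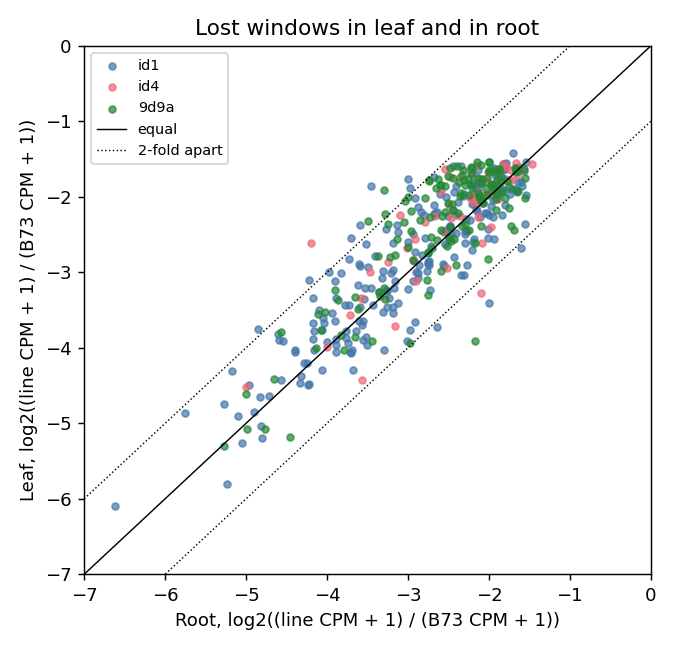
Log2 ratio of a line to B73 (CPM + 1) in leaf (vertical) against root (horizontal) for the 430 combinations of a window and a line that lost it. The points follow the line of equality down to id1 at 79.7 Mb of chromosome 1, at -6.09 in leaf and -6.61 in root, and 413 of them lie between the dotted lines that mark a 2-fold gap.

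The 714H and 714 leaf libraries took no part in the choice of the windows, but the B73 leaf library to which they are set did. Of the 319 members, 3 were at 1/3 of B73 or less in 714H and 84 in 714. Among all eligible windows the same was true of 0.571% in 714H and 1.01% in 714. The 84 members made up 57.1% of all 147 eligible windows at that level in 714, and 26.3% of the members (exact 95% interval 21.6% to 31.5%). Of the other 63 windows low in 714, 41 were on chromosome 4 and 17 on chromosome 1.

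The 714 library was low more often in windows lost in 2 or 3 lines (63 of 91) than in windows lost in 1 line (21 of 228). It was at 1/3 of B73 or less in 17 of the 20 windows lost in all 3 lines, 28 of 41 lost in id1 and 9d9a, 17 of 28 lost in id1 and id4, and 1 of 2 lost in id4 and 9d9a. Among windows lost in a single line it was low in 19 of 138 of id1, 2 of 79 of 9d9a and none of 11 of id4. The median log2 ratio of 714 to B73 was -2.49 for windows lost in all 3 lines (95% interval of the median -2.84 to -1.84), -1.72 for id1 and 9d9a (-1.87 to -1.55) and -1.86 for id1 and id4 (-2.53 to -1.05). It was 0.08 for id1 alone, 0.11 for id4 alone and 0.01 for 9d9a alone, against 0.02 for eligible windows that were not members. These intervals describe the scatter of windows, which are neighbours on 1 chromosome and not independent. Sharing went together with position. Of the 138 windows lost in id1 alone, 42 were on chromosome 2, where 714 was low in 1 member. Another 47 were in the cluster from 75.9 to 87.2 Mb of chromosome 1, where 714 was low in none. The 5 windows lost in id1 and id4 at 67.8 to 74.7 Mb of chromosome 1 were not low in 714 either. Whether low 714 followed sharing or position was not tested.

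Along chromosome 1, 714 leaf was low in windows lost in id1 up to 66.7 Mb and in none beyond. In the segment from 28.5 to 47.9 Mb, 714 was at 1/3 of B73 or less in 41 of the 56 windows lost in id1, and from 52.1 to 65 Mb in 31 of 45. From 66.3 to 87.2 Mb it was low in 2 of 67, at 66.3 and 66.7 Mb, and the median ratio of 714 to B73 over the 71 members there was 1.13. The window at 66.7 Mb had 10.8 CPM in id1 leaf, 33.6 in id4 and 119 in 9d9a, with 70.4 in 714H and 13.1 in 714, against 108 in B73. The line 9d9a had lost 62 of the 68 members of the first of these segments, 4 of 52 in the second and none of 71 in the third.

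Among members with B73 leaf at 50 CPM or more, the 3 lowest in 714 relative to B73 were also low in id1. At 53.5 Mb there were 2 reads in id1 leaf (0.200 CPM) and 1 in 714 (0.101 CPM), while 714H had 25.8 CPM, id4 2.12 and 9d9a 71.3, against 65.9 in B73. The ratio of 714 to B73 there was 0.00153 (exact 95% interval 3.86e-05 to 0.00852). At 63.8 Mb id1 had 0.998 CPM in leaf, 714H 33.6 and 714 1.41, against 57.4 in B73, with 10 reads in id1 and 14 in 714. At 63.9 Mb id1 had 2.40 CPM in leaf, 714H 37.0 and 714 2.31, against 83.5 in B73, and id4 had 50.8. The ratio of 714 to B73 was 0.0245 (0.0134 to 0.0414) at 63.8 Mb and 0.0277 (0.0175 to 0.0417) at 63.9 Mb. The window at 63.7 Mb, under that B73 level, had a ratio of 0.00860. Over all windows lost in id1 and id4, 714 leaf was more than 2-fold above id1 leaf in 13 of 28. The same held for 13 of 41 lost in id1 and 9d9a and for 6 of 20 lost in all 3 lines. In none of these was 714 more than 2-fold below id1, and the rest were within 2-fold.

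A few members were above B73 in the lines with the 714 allele. At 62.2 Mb of chromosome 1, lost in id4 alone, 714H had 308 CPM and 714 488, against 129 in B73 leaf. The ratio to B73 was 2.38 in 714H (2.26 to 2.52) and 3.78 in 714 (3.60 to 3.97). At 62.4 Mb 714H had 292 CPM and 714 385, against 192 in B73. At 159.3 Mb, lost in 9d9a alone, 714H had 46.8 CPM and 714 112, against 61.3 in B73, so that 714H was below B73 and 714 above it.

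**Figure D4:**
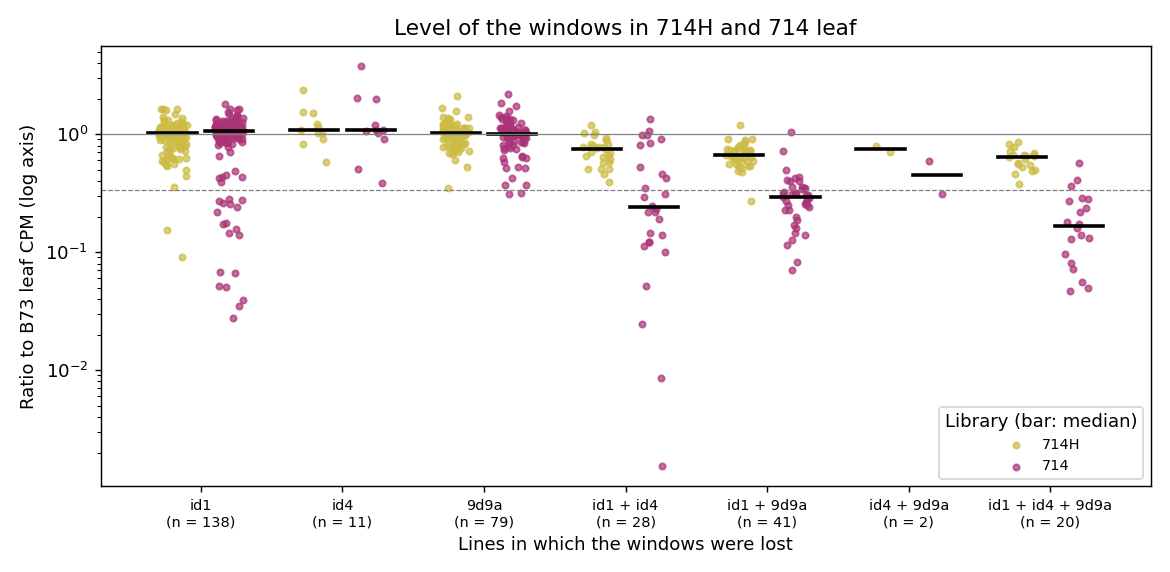
Ratio to B73 leaf CPM (log axis) of each member in 714H and 714 leaf, by the lines in which the window was lost; bars are medians, the full line marks equality and the dashed line 1/3. The 714 points fall below 1/3 for most windows lost in 2 or 3 lines, where the 714H medians lie between 0.645 and 0.753.

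In the 84 members at 1/3 of B73 or less in 714 leaf, 714H mostly lay between 714 and B73. Over these 84 windows the median ratio to B73 was 0.625 in 714H and 0.184 in 714. The rule used neither library, but these windows were picked for low 714, which favours a ratio of 714H to 714 above 1. The exact 95% interval of that ratio lay above 1 in 81 of the 84. Among the 63 eligible windows low in 714 that were not members, it did so in 36. Among all eligible windows, which were not picked for low 714, that was so in 7.92%. Placed on the CPM scale from 714 at 0 to B73 at 1, 714H had a median of 0.540 (quartiles 0.451 and 0.634), and 65 of 84 lay between 0.3 and 0.7. At 50.6 Mb 714H was at 0.648 of B73 (0.608 to 0.691) and 714 at 0.0554 (0.0453 to 0.0670). The choice of the 84 windows for low 714 against B73 sets the ends of this scale.

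In the other 3 of the 84 windows the interval of the ratio of 714H to 714 included 1. At 194.9 Mb of chromosome 5, lost in id1 alone, the leaf levels were 12.7 CPM in id1, 39.4 in id4 and 35.9 in 9d9a, with 15.6 in 714H and 15.9 in 714, against 102 in B73. At 144.5 Mb of chromosome 2, also lost in id1 alone, they were 1.70 in id1, 15.8 in id4 and 52.5 in 9d9a, with 3.0 in 714H and 1.71 in 714, against 32.9 in B73. At 242.3 Mb of chromosome 1, lost in 9d9a, they were 50.6 in id1, 45.5 in id4 and 4.84 in 9d9a, with 13.7 in 714H and 12.2 in 714, against 39.4 in B73. The ratio of 714H to 714 was 0.982 (0.782 to 1.23), 1.75 (0.937 to 3.39) and 1.13 (0.875 to 1.45) at these windows, in the same order. Those on chromosomes 2 and 5 were the only members off chromosome 1 at 1/3 of B73 or less in 714. They were singled out after their values were seen. The third member at 1/3 of B73 or less in 714H was at 38.7 Mb of chromosome 1, with 26.2 CPM in 714H and 6.84 in 714, against 97.6 in B73.

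Outside the members, the 63 eligible windows low in 714 had 714H at a median place of 0.103 between 714 and B73. In 36 of these 63 the interval of the ratio of 714H to 714 lay above 1. The difference between the members and these windows was not tested.

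**Figure D5:**
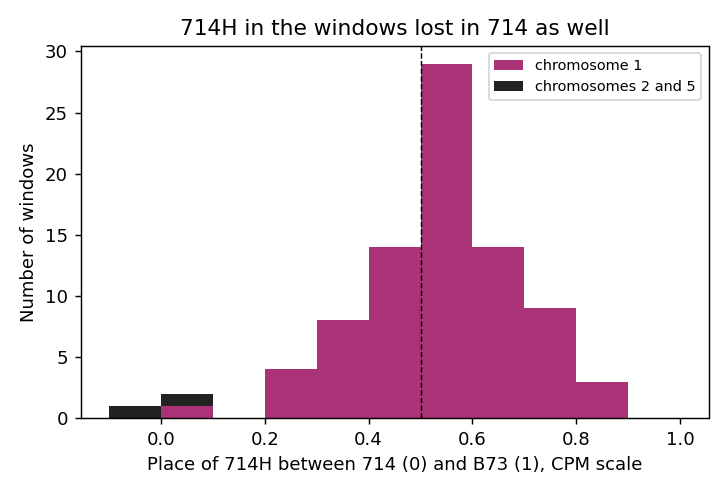
Place of 714H leaf on the CPM scale between 714 (0) and B73 (1) in the 84 members at 1/3 of B73 or less in 714; the dashed line marks 0.5. The 82 windows of chromosome 1 centre on 0.545 apart from 1 window near 0, and the 2 windows of chromosomes 2 and 5 lie at or near 0.

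Leaf and root were compared over the 4 lines sequenced in both tissues, a contrast the rule did not use, although a floor of 10 CPM in both B73 tissues leaves out windows read in 1 tissue only. All 319 members were tested in the fit of 20386 windows. In edgeR's quasi-likelihood test with line as a term, 45 members were higher in leaf and 79 higher in root at an adjusted p under 0.05, in all 124 or 38.9%. Over all windows tested the share was 37.5%, with 17.7% higher in leaf and 19.8% higher in root, and over the eligible windows alone it was 44.0%. The share among members was thus near the background. Without the B73 libraries 51 members were higher in root, beside 16.8% of all windows tested.

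Differences between the tissues were small among the members called, with a median absolute log2 change of 0.40, and 2 members exceeded 2-fold. At 232.7 Mb of chromosome 1 leaf had 135 CPM in id1, 129 in id4, 22.8 in 9d9a and 128 in B73, against 57.7, 63.1, 12.9 and 43.7 CPM in root in the same order of lines. Leaf was higher in all 4 lines, the low 9d9a included, with a log2 change of 1.17 ± 0.10 (SE) and an adjusted p of 3.97e-06 in edgeR. At 62.6 Mb leaf had 9.68 CPM in id1, 28.2 in id4, 88.4 in 9d9a and 78.2 in B73, against 6.22, 14.6, 29.9 and 41.6 in root (log2 1.05 ± 0.11, adjusted p 9.66e-06 in edgeR). At 82.6 Mb root was the higher tissue, with 6.59 CPM in id1, 22.2 in id4, 32.1 in 9d9a and 32.4 in B73 in leaf, against 10.1, 33.8, 61.6 and 80.9 in root (log2 -0.97 ± 0.11, adjusted p 1.72e-05). The windows at 35.0 Mb (log2 -0.96 ± 0.14) and 238.6 Mb (-0.93 ± 0.17) were likewise higher in root in all 4 lines, and that at 73.5 Mb (0.72 ± 0.13) was higher in leaf. A fit of tissue alone in edgeR, without line, called none of the 318 members it tested, and none had an unadjusted p under 0.05, while it called 25.3% of all windows tested. Members were picked for differences between lines, and that fit counts such differences as residual spread. DESeq2 with line as a term called 85 members and 29.3% of all windows tested.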

How the data were processed

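Small RNA was counted in 10 libraries (6 leaf, 4 root). The authors deposited whole-number counts of reads per consecutive 100 kb window, per the file headers and values. The submitters' processing notes name Bowtie. Genome build, settings, read lengths and treatment of reads with several matches were not given in the sources used here. Windows are named by the deposited position in Mb, read as their start, without gene annotation or sequence.

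CPM were counts over the file total, with windows not listed taken as 0. The rule and lists were chosen with earlier results of these data known. Leaf against root was fitted in edgeR 4.0.16 (R 4.3.3; TMM, default low-count filter, robust quasi-likelihood, Benjamini-Hochberg) over 8 libraries with line as a term (3 residual degrees of freedom). The same lines pair leaf with root. The SE was derived from the F statistic, and the fit was tested on simulated counts. The spread behind the p-values is how the leaf against root difference varied among the 4 lines, with no replicate within a line. In edgeR the spread of each window is drawn toward a trend over all windows tested. A p-value thus does not rest on the values of its own window alone. Whether a library held 1 plant or more is not stated, so line, plant and technical differences in that spread cannot be told apart. Ratios of 2 libraries carry exact (Clopper-Pearson) intervals of counting error only, as PCR copies of 1 molecule were not told apart. Alternatives were a B73 floor of 5 or 20 CPM, limits of 0.5 and 0.25, TMM scaling, 1 tissue alone, an upper counting bound, other cluster distances and pseudocounts, DESeq2 1.42.0, no filter, library totals and leaving out lines. Named windows were, per sharing class, the 3 highest in B73; the lowest per line; those nearest the limits; the ends of the 8 largest clusters; the 3 highest and lowest in 714 with B73 leaf at 50 CPM or more; and the 3 most different between tissues each way with all 4 lines alike.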

Additional observations from a re-analysis of the deposited data

Results flagged for a closer look

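Of the named windows compared between tissues, 2 had 1 line far from the other 3 in leaf, measured as the gap to the nearest line over the whole range. The value was 0.941 at 232.7 Mb and 0.917 at 238.6 Mb of chromosome 1. The low line was 9d9a in both, with 22.8 CPM at 232.7 Mb and 20.1 CPM at 238.6 Mb, and both windows were chosen because 9d9a was low there. Chance flags about 1 in 20 groups of samples, and 12 groups were examined.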

How the results depend on the processing

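Of 178 recomputed values 147 were classed as unchanged, 25 moved and 6 lost significance, and none changed sign. For counts the unchanged class was a tolerance around the main value, not an error, and it was wide. It took in 413 members with root alone and 226 with a limit of 0.25, against 319. It also took in 85 members called between tissues by DESeq2, against 124 in edgeR. With a limit of 0.5 of B73 there were 539 members, 179 windows lost in id4, 231 in 9d9a and 158 in 2 or 3 lines, 69.8% had a neighbour in the set, 66.2% were on chromosome 1 and 18.2% were at 1/3 of B73 or less in 714. With a limit of 0.25 there were 36 windows lost in id4 and 83 in 9d9a, and the same shares were 55.3%, 81.0% and 34.5%. A B73 floor of 20 CPM gave 53.2% with a neighbour. With root alone 111 windows were lost in id4 and 21.5% of members were low in 714, and with the upper counting bound 40 were lost in id4. Members at most 0.5 or 2 Mb apart formed 62 or 16 clusters. With 0.5 of B73 as the limit for the 714 allele, 4.70% of members were low in 714H and 34.5% in 714, and with 0.25, 17.6% were low in 714. The floors, limits, tissues and counting bound of the rule change by construction which windows are admitted, while cluster distances and limits for the 714 allele leave the members as they are. In the tissue test, the fit with no replicate block, that is without line, called 0 members, beside 25.3% of all windows tested. It had 0 members higher in leaf and 0 higher in root, and the 6 named windows lost significance there. The rule picked members for differences between lines, and a fit without line counts such differences as residual spread. How far this accounts for the 0 was not tested. Leaving out 1 line at a time gave 94 to 118 members called, 37 to 43 higher in leaf and 51 to 75 higher in root, beside 28.3% to 34.2% of all windows tested called.

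The median member held 99 to 926 reads per library, but the lowest windows held 1 to 10 in a line, so the size of their loss is uncertain. With 1 library per line and tissue, no difference between lines has a replicate check.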
